A study of Mus musculus with 6 samples.

Results

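The genes described here are 8 genes of retinoid metabolism, namely Rbp4, Bco1, Rdh7, Rdh11, Rdh16, Dhrs9, Aldh1a1 and Cyp26a1. They were chosen by symbol, with earlier results of these data known, from the gene tables of 6 mouse liver libraries. All 8 were found among the 18444 genes that the tables list. Liver RNA was sequenced from male C57BL/6 mice (C57BL/6J in the study's methods). The aim was to follow the effect of JT003, a peptide agonist of both adiponectin receptors, in a diet model and a CCl4 model of liver injury. The labels and the methods give the mice as 6 to 8 weeks old, which cannot be the age at the end of a 16-week diet. The age when the livers were taken is not given. The diet model holds a control library (SD, labelled as chow), a library after a high-fat diet (HFD, 16 weeks) and a library after HFD plus JT003 (0.5 mg per kg by daily intraperitoneal injection for 4 weeks). The CCl4 model holds a library after injections of corn oil, a library after CCl4 (20% in corn oil, 5 ml per kg every 3 days for 6 weeks) and a library after CCl4 plus JT003 (the same daily dose for 3 weeks). The study's methods give 6 mice per group and 8 h of fasting for all mice, but whether the RNA of several mice was combined in a library is given neither there nor in the labels.

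The HFD library is labelled as steatohepatitis, for which the methods combine HFD with a diet deficient in methionine and choline over the last 4 weeks, while HFD alone is described for fatty liver. The study's text speaks of the sequenced livers as those of mice on SD, HFD or HFD with JT003. The diet of the mice of the CCl4 model is not given. Each condition has 1 library, so there is no spread between mice, and every comparison is between libraries and not between conditions. Rounded read counts summed to 19374255 to 20184578 per library. Hepatocyte markers such as Alb dominated every library, with 7 of them summing to between 83502 and 102751 scaled CPM, the reads of a gene relative to the library size after TMM scaling. In the CCl4 library 6 of 6 mitosis genes were called higher than in corn oil, and their summed level was 197 scaled CPM against 3.39 to 17.0 elsewhere.

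Vitamin A reaches the liver as retinyl ester or as carotenoid, is stored mainly in stellate cells, and is sent out as retinol bound to a plasma carrier. Inside cells, retinol is oxidised to retinal by short-chain dehydrogenases, retinal is oxidised to retinoic acid by aldehyde dehydrogenases, and retinoic acid is cleared by cytochromes of the Cyp26 family. Reductases return retinal to retinol. Retinoic acid acts through nuclear receptors that bind direct repeats in the promoters of their target genes, of which Cyp26a1 is the classic example.

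The promoter of Cyp26a1 is shown because this gene spanned the widest range of the 8 and because its start lies beside such a repeat. The 250 bases before the start of the gene in RefSeq, on the plus strand of GRCm38.p6 at chr19:37697558-37697807, are printed 5′ to 3′, with the repeat in capitals.

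Cyp26a1: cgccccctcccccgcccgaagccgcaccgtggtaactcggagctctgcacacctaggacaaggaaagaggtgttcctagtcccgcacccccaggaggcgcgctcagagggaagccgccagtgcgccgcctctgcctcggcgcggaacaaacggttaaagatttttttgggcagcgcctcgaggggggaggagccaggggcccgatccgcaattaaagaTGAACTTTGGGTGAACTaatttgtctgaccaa

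The capitals lie at -32 to -16 from the start and, read on the opposite strand, are a pair of AGTTCA motifs 5 bases apart (AGTTCANNNNNAGTTCA, searched on both strands). Of 32851 RefSeq promoter windows, each from 250 bases before to 50 bases after a start, 8 windows (0.0244%) held this form, and 13 (0.0396%) held it or a form with AGGTCA in place of either or both. The 8 genes had 12 windows, and no other member held such a repeat. The window of Bco1 held a repeat with a spacing of 1 base (AGGTCANAGGTCA) at -56 to -44, and 27 windows of all (0.0822%) held this or a related form. None of the 8 genes held the form with a spacing of 2 bases (AGGTCANNAGGTCA or with AGTTCA in place of either or both), which 13 windows of all held. A match of letters is not a measured binding site.

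Levels between genes are compared in FPKM, a unit that corrects for transcript length and library depth. Rbp4 stood highest of the 8 with a median of 3459 FPKM over the 6 libraries. Rdh7 followed with 692 FPKM and Aldh1a1 with 468 FPKM. The others were far lower, at 24.1 FPKM for Rdh16, 6.475 FPKM for Rdh11, 4.56 FPKM for Cyp26a1, 3.31 FPKM for Bco1 and 0.34 FPKM for Dhrs9. The order by abundance was not the order by range. Between the highest and the lowest library, scaled CPM differed 280-fold for Cyp26a1 and 19.7-fold for Dhrs9, against 1.38-fold for Rdh7 and 1.93-fold for Rbp4. Aldh1a1 spanned 3.50-fold, Rdh11 2.89-fold, Rdh16 2.32-fold and Bco1 2.27-fold.

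**Figure D1:**
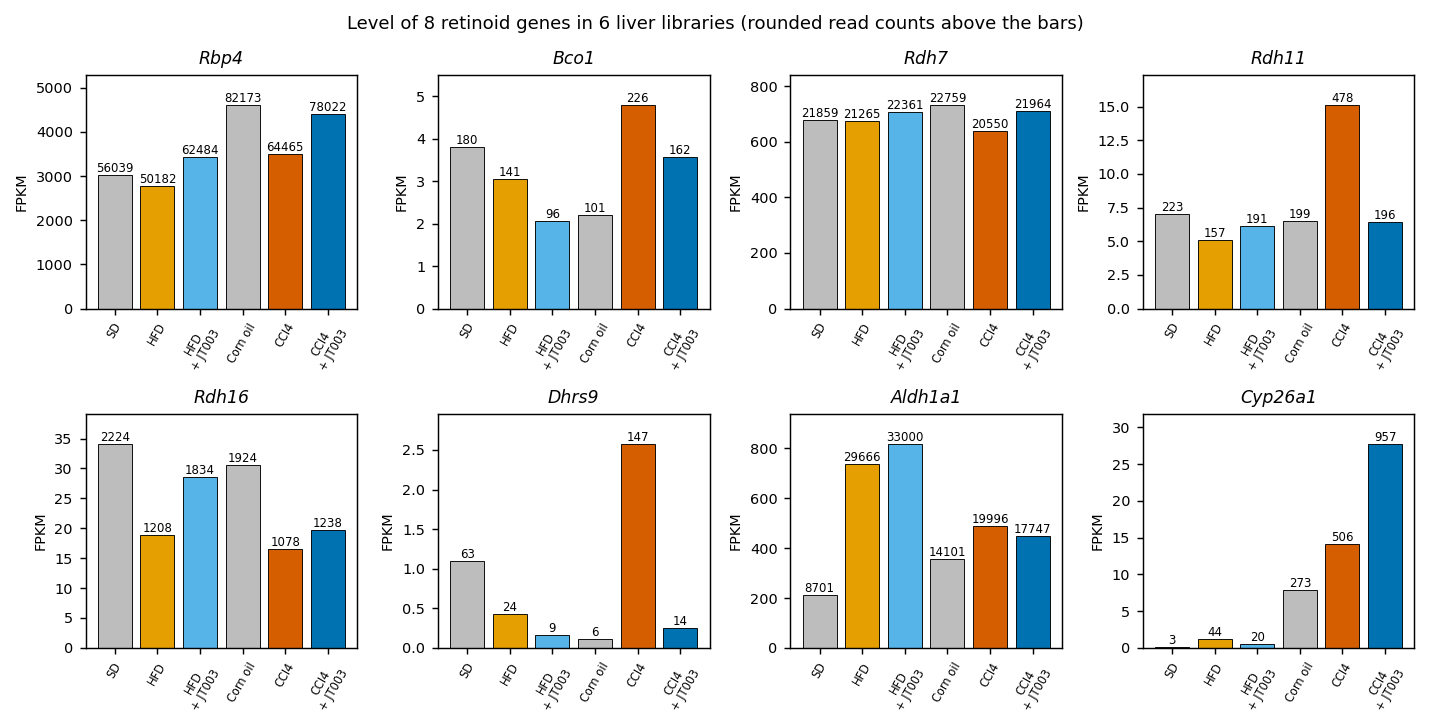
Bars show the deposited FPKM of each gene in each library on an axis that starts at 0, 1 panel per gene, with the rounded read count above the bar. Dhrs9 and Rdh11 stand out in the CCl4 library, Aldh1a1 in the HFD libraries, and Cyp26a1 in the libraries of the CCl4 model, corn oil included.

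A gene was called between a pair of libraries when the exact binomial test on its reads passed a Benjamini-Hochberg adjusted p of 0.001 over all genes and the ratio was at least 2-fold after TMM scaling of the library sizes. Intervals are 95% Clopper-Pearson intervals of the log2 ratio. They cover counting error only, since 1 library per condition gives no spread between mice. PCR copies of a molecule could not be told from separate molecules, so the intervals may be too narrow even for counting error. The HFD library enters both diet comparisons and the CCl4 library both CCl4 comparisons, so their ratios are given side by side and not as independent evidence. In whole liver, fewer cells of a type and less RNA per cell cannot be told apart.

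Between SD and HFD, 3 of the 8 genes were called, where 5.39% of all genes tested were. Aldh1a1 and Cyp26a1 were higher in HFD, where 2.92% of all genes were called higher, and Dhrs9 was lower, where 2.47% were called lower, and the median log2 ratio of the 8 was -0.34 against 0.00 for all genes tested. After JT003, 0 of the 8 were called against HFD, where 1.63% of all genes were (0.743% higher and 0.883% lower). Between corn oil and CCl4, 2 of the 8 were called (Dhrs9 higher, Rdh16 lower), where 7.18% of all genes were (4.76% higher and 2.41% lower). With JT003 against CCl4 alone, 2 of the 8 were called, both lower (Dhrs9 and Rdh11), where 4.41% of all genes were (1.91% higher and 2.5% lower). The median log2 ratio of the 8 was 0.09, 0.41 and -0.05 in these comparisons. In all, 5 of the 8 were called in at least 1 of the 4 comparisons, where 12.4% of all genes were, and Rbp4, Bco1 and Rdh7 in none. The members were chosen with earlier results of these data known, so the counts beside these shares describe them and test nothing. The shares also count genes with as little as 1 read. Between SD and HFD 16973 genes were tested, of which 13335 had at least 10 counts in either library.

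**Figure D2:**
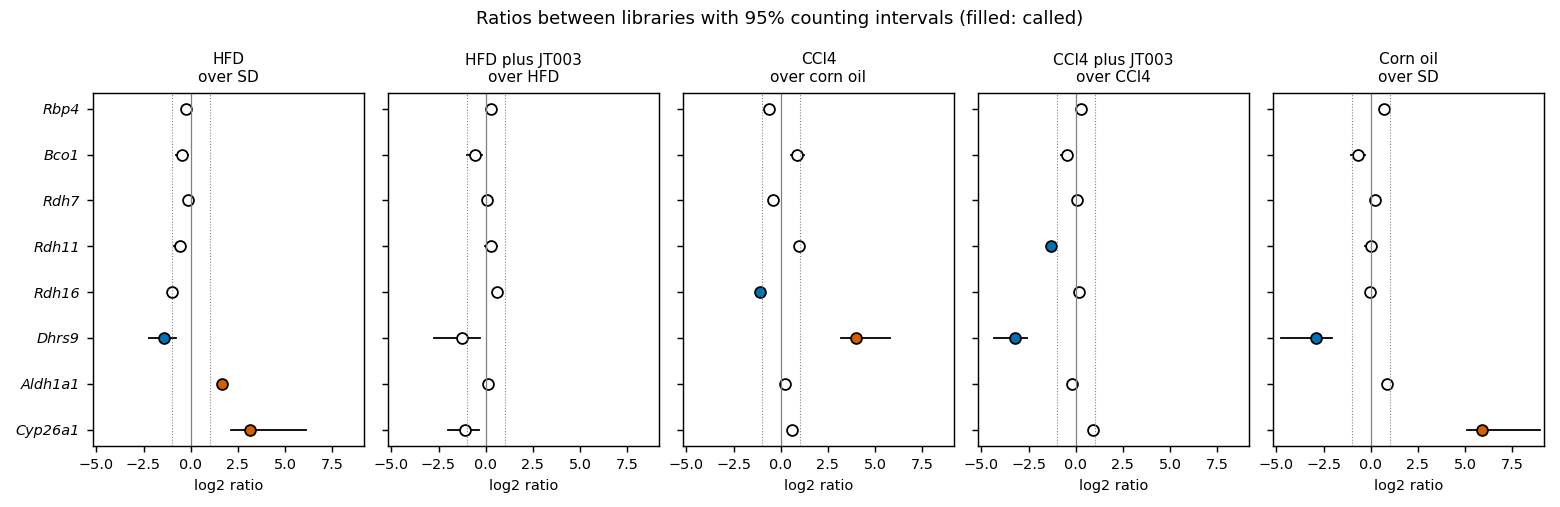
Log2 ratios of the 8 genes in 5 comparisons of libraries, with 95% counting intervals as horizontal lines and dotted lines at 2-fold. Filled points are called genes, of which the most distant is Cyp26a1 in corn oil over SD at 5.90.

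Rbp4 (gene ID 19662) encodes the plasma carrier that takes retinol out of the liver. It had 56039 counts in SD, 50182 in HFD, 62484 in HFD plus JT003, 82173 in corn oil, 64465 in CCl4 and 78022 with CCl4 plus JT003. The lowest library was HFD and the highest corn oil, and in each model the library with injury alone was below both its control and its JT003 library in counts. The log2 ratio was -0.25 (-0.27 to -0.23) for HFD over SD and, after JT003, 0.29 (0.28 to 0.31) over HFD. In the CCl4 model it was -0.64 (-0.65 to -0.62) for CCl4 over corn oil and 0.26 (0.25 to 0.28) with JT003. None reached 2-fold. In scaled CPM the CCl4 and the HFD plus JT003 libraries, neighbours in the order of levels at 3041 and 3061, did not differ beyond counting error. Ttr, the protein that Rbp4 travels with in plasma, had log2 ratios of 0.14, -0.16, 0.24 and -0.31 in the same comparisons, each of the opposite sign to that of Rbp4.

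Bco1 (gene ID 63857) encodes the oxygenase that cleaves beta-carotene into retinal, and is best known from the intestine. Its counts were low, at 180 in SD, 141 in HFD, 96 in HFD plus JT003, 101 in corn oil, 226 in CCl4 and 162 with CCl4 plus JT003. The CCl4 library was the highest and the HFD plus JT003 library the lowest, with 4.79 and 2.05 FPKM. The log2 ratio was 0.86 (0.53 to 1.23) for CCl4 over corn oil and -0.49 (-0.79 to -0.19) for CCl4 plus JT003 over CCl4. In the diet model Bco1 was lower at each step, at -0.44 (-0.77 to -0.12) for HFD over SD and -0.57 (-0.97 to -0.19) with JT003. Most neighbours in the order of its levels did not differ beyond counting error. The exception was CCl4 plus JT003 against SD.

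The dehydrogenases and reductases moved in different ways. Rdh7 (gene ID 54150), an abundant short-chain dehydrogenase of the liver, had 21859 counts in SD, 21265 in HFD, 22361 in HFD plus JT003, 22759 in corn oil, 20550 in CCl4 and 21964 with CCl4 plus JT003. It varied the least of the 8, and its log2 ratio lay between -0.44 (-0.46 to -0.41, CCl4 over corn oil) and 0.09 (0.06 to 0.11, CCl4 plus JT003 over CCl4) in the 4 model and JT003 comparisons.

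Rdh16 (gene ID 19683), a related dehydrogenase that oxidises all-trans-retinol, had 2224 counts in SD, 1208 in HFD, 1834 in HFD plus JT003, 1924 in corn oil, 1078 in CCl4 and 1238 with CCl4 plus JT003. The HFD library and both CCl4 libraries were the low ones, and SD and corn oil did not differ beyond counting error. The log2 ratio was -0.97 (-1.07 to -0.87) for HFD over SD, just short of 2-fold, and -1.12 (-1.23 to -1.02) for CCl4 over corn oil, which was called. It was called no longer when libraries were scaled by total reads (-0.89) or on log2 of FPKM plus 1 (-0.85). With JT003 the ratio was 0.58 (0.47 to 0.69) in the diet model and 0.19 (0.07 to 0.31) in the CCl4 model. Against the controls the JT003 libraries stood at -0.39 (-0.48 to -0.30) and -0.93 (-1.04 to -0.83). Of 8 genes of pericentral hepatocytes, 4 were called lower in CCl4 than in corn oil and none was called higher, while Cyp1a2 (6742 counts in corn oil and 12354 in CCl4) and Axin2 (190 and 367) had more counts in CCl4. The sum of the 8 was 3423 scaled CPM with corn oil, 797 with CCl4 alone and 547 when JT003 was added, against 2638 to 2997 in the diet model. Their part in the result was not tested.

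Rdh11 (gene ID 17252), which reduces retinal to retinol, had 223 counts in SD, 157 in HFD, 191 in HFD plus JT003, 199 in corn oil, 478 in CCl4 and 196 with CCl4 plus JT003. Only the CCl4 library stood apart upward, at 15.1 FPKM against 5.06 to 7.04 in the other libraries. Its log2 ratio was 0.97 (0.73 to 1.22) for CCl4 over corn oil, below the threshold, and 1.20 with scaling by total reads, above it. For CCl4 plus JT003 over CCl4 it was -1.29 (-1.54 to -1.05), which was called, and for CCl4 plus JT003 over corn oil it was -0.32 (-0.61 to -0.03). In the diet model the ratios were -0.59 (-0.90 to -0.30) for HFD over SD and 0.26 (-0.05 to 0.57) with JT003.

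Dhrs9 (gene ID 241452), a dehydrogenase of retinol and steroids, was the rarest of the 8. It had 63 counts in SD, 24 in HFD, 9 in HFD plus JT003, 6 in corn oil, 147 in CCl4 and 14 with CCl4 plus JT003. The CCl4 library was the highest and SD the next, and the other libraries, from 6 to 24 counts, did not differ from their neighbours in the order of levels beyond counting error. The log2 ratio was 3.97 (3.17 to 5.80) for CCl4 over corn oil and -3.23 (-4.31 to -2.61) for CCl4 plus JT003 over CCl4. CCl4 plus JT003 and corn oil did not differ beyond counting error (0.76, -0.55 to 2.59). In the diet model Dhrs9 was lower in HFD than in SD (-1.41, -2.23 to -0.78) and was not called with JT003 (-1.26, -2.73 to -0.28). The call in HFD was lost on log2 of FPKM plus 1 (-0.55).

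Dhrs9 and Rdh11 thus had their highest level in the library where the mitosis genes were highest. The 6 mitosis genes summed to 5.47 scaled CPM with corn oil, 197 with CCl4 alone and 17.0 when JT003 was added, and 6 of 6 were called in each direction in turn. None of the 6 genes was at 0 in any library. Of 6 myofibroblast genes, CCl4 over corn oil gave 3 called higher, and JT003 over CCl4 alone 3 called lower, with sums of 60.8 in corn oil, 327 in CCl4 and 142 with JT003. Acta2 of this list had 165 counts in corn oil and 108 in CCl4. Other lists were higher in CCl4 than in corn oil as well, with 5 of 6 macrophage genes and 4 of 5 bile duct genes called. The macrophage sum was 59.3 in corn oil, 168 in CCl4 and 200 with JT003, and the bile duct sum was 50.1, 156 and 143. In each of these lists 1 gene was called lower with JT003. The part of these genes in the results for Dhrs9 and Rdh11 was not tested. In the diet model the mitosis sum was 3.39 in SD and 5.72 in HFD, where Dhrs9 went from 63 to 24 counts.

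**Figure D3:**
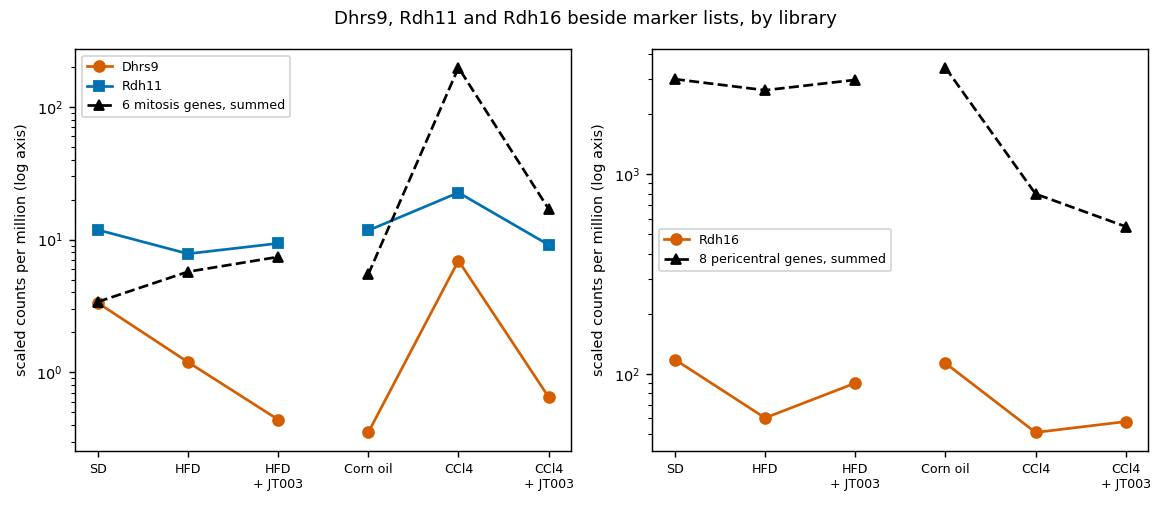
Scaled CPM on a log axis, with Dhrs9, Rdh11 and 6 summed mitosis genes on the left and Rdh16 and 8 summed pericentral genes on the right. Lines join the libraries of a model, and the CCl4 library is the peak of all 3 lines on the left.

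Aldh1a1 (gene ID 11668) encodes the aldehyde dehydrogenase that makes retinoic acid from retinal in liver. It had 8701 counts in SD, 29666 in HFD, 33000 in HFD plus JT003, 14101 in corn oil, 19996 in CCl4 and 17747 with CCl4 plus JT003. SD was the lowest library and the HFD libraries the highest, at 212 FPKM against 737 and 816. HFD stood 1.68 (1.64 to 1.71) above SD on the log2 scale, a 3.20-fold difference, and JT003 left it at 1.81 (1.78 to 1.84) over SD. The direct ratio of HFD plus JT003 over HFD was 0.13 (0.11 to 0.15). In the CCl4 model the differences were small, at 0.22 (0.18 to 0.25) for CCl4 over corn oil and -0.18 (-0.21 to -0.15) with JT003. CCl4 plus JT003 over corn oil was 0.03 (0.0007 to 0.06) when scaled within the model. On the scaling over all 6 libraries these levels were 826 and 829 scaled CPM, which did not differ beyond counting error. Myofibroblast genes moved with the diet too, with 5 of 6 called higher in HFD and a sum of 43.1 in SD, 161 in HFD and 66.0 after JT003. Their part in the result for Aldh1a1 was not tested. The related gene Aldh1a7, with 2514 to 5158 counts, was highest in the CCl4 library and not in HFD (3435).

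Cyp26a1 (gene ID 13082), the cytochrome that breaks down retinoic acid, had the widest range. It had 3 counts in SD, 44 in HFD, 20 in HFD plus JT003, 273 in corn oil, 506 in CCl4 and 957 with CCl4 plus JT003. Each library of the CCl4 model was above each library of the diet model, and every neighbour in the order of levels differed beyond counting error. Within the diet model HFD over SD gave a log2 ratio of 3.13 (2.14 to 6.11), which rests on the 3 counts in SD, while JT003 over HFD alone gave -1.09 (-2.00 to -0.37). Within the CCl4 model the ratio was 0.60 (0.39 to 0.82) for CCl4 over corn oil and 0.91 (0.75 to 1.07) with JT003. CCl4 plus JT003 stood 2.85-fold above corn oil.

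The largest step of Cyp26a1 lay between the controls. Corn oil over SD gave a log2 ratio of 5.90 (5.09 to 8.94), from 273 counts against 3. In that comparison 2 of the 8 genes were called, where 5.42% of all genes were (2.18% higher and 3.24% lower), and the other was Dhrs9, lower in corn oil at -2.89 (-4.74 to -2.04), a call that was lost on log2 of FPKM plus 1 (-0.92). Rbp4 stood at 0.70 (0.69 to 0.72) and Aldh1a1 at 0.85 (0.81 to 0.88), both higher in corn oil, and Rdh11 (-0.01, -0.30 to 0.27) and Rdh16 (-0.06, -0.15 to 0.03) did not differ beyond counting error. The controls differ in corn oil and its injection, in the experiment, and possibly in diet and in age when the livers were taken. The methods give 16 weeks for the diet model and 6 weeks for the CCl4 model. These differences cannot be told apart. Macrophage genes differed as well, with 5 of 6 called lower in corn oil and a sum of 59.3 scaled CPM against 262 in SD. Their part in the result was not tested.

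Reads that several genes share were divided between them by the authors' counting program, so that a fractional count marks a gene with shared reads. Rbp4, Rdh11, Dhrs9 and Cyp26a1 had whole values in all 6 libraries. Rdh7, Rdh16, Bco1 and Aldh1a1 had fractional values in all of them. In a search of the reference transcripts, 477 of the 3158 windows of 50 bases in Rdh16 also occurred in another gene, with Rdh9 as the leading partner. For Rdh7 they were 215 of 1629, led by Rdh18-ps, and for Aldh1a1 151 of 2004, all with Aldh1a7. Rdh9 had log2 ratios of 0.03 for HFD over SD and 0.60 for CCl4 over corn oil, where Rdh16 was lower in both. The values of these members are therefore less certain than their counting intervals.

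For the CCl4 condition the authors' comparison table also holds a column of counts that appears to pool several libraries. It sums to 2.97 times the CCl4 library. Subtracting the CCl4 library left 39780568 reads, against which the 8 genes could be set. None of the 8 was called between the CCl4 library and these other CCl4 reads, and the log2 ratio of the library over them lay between -0.78 for Bco1 (-0.998 to -0.56) and 0.66 for Rdh16 (0.55 to 0.78). Dhrs9 had 4.74 CPM in the other reads against 7.47 in the CCl4 library, and Cyp26a1 had 26.5 against 25.7. Set against the other reads, CCl4 over corn oil was 3.43 for Dhrs9, -1.80 for Rdh16 and 1.63 for Bco1, and the last was then called. CCl4 plus JT003 over CCl4 was -2.63 for Dhrs9, -1.0004 for Rdh11, -1.25 for Bco1 and 0.87 for Cyp26a1, of which Dhrs9, Rdh11 and Bco1 were called. The near-zero ratios of Aldh1a1 changed sign (-0.0032 and 0.031). How many mice the column covers is not stated.

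**Figure D4:**
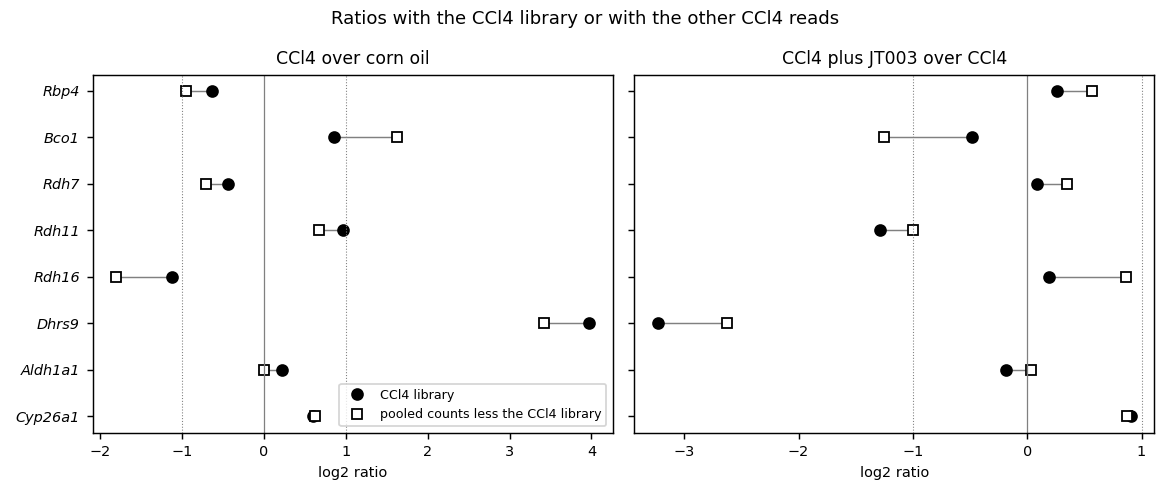
Log2 ratios of the 8 genes for CCl4 over corn oil and for CCl4 plus JT003 over CCl4, taken with the CCl4 library (circles) or with the pooled CCl4 counts less that library (squares). Dhrs9 keeps the largest ratio in both panels with either source, at 3.97 or 3.43 on the left.

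Other genes of the pathway were taken from a list of 58, of which 55 were found and 7 had at most 10 counts in every library. Between SD and HFD, 7 of them were called, 5 higher and 2 lower, where 5.39% of all genes were called. Retsat, which saturates retinol, had 46809 counts in SD and 9277 in HFD, a log2 ratio of -2.43 (-2.46 to -2.39), and was higher with JT003 than in HFD, at 18901 counts (2.01-fold). Pnpla2, a lipase of lipid droplets, was lower in HFD at -1.92 (-2.00 to -1.84) and stayed at 0.02 (-0.07 to 0.12) with JT003. Lrat, which esterifies retinol for storage, was higher in HFD at 1.34 (1.08 to 1.64), from 145 to 395 counts. Rdh5, a retinol dehydrogenase, was higher by 1.02, Bco2, a carotenoid oxygenase, by 1.04, Ces1g, a carboxylesterase, by 1.46 and the retinoic acid responder Rarres1 by 1.36. Lrat is also in a list of 7 genes of quiescent stellate cells. It was the 1 gene of that list called higher in HFD, where the median log2 ratio of the list was 0.38. The part of stellate cells in the result for Lrat was not tested.

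With JT003 in the diet model 2 of the other genes were called (1.63% of all genes), Retsat and the carboxylesterase Ces1d, which went from 4958 to 20807 counts (a log2 ratio of 2.05, or 4.13-fold). Between corn oil and CCl4 8 were called (7.18% of all genes), of which 5 were higher and 3 lower. Lpl, the lipoprotein lipase, was higher by 1.99 (1.81 to 2.18), and was higher still in the other CCl4 reads, with 168 CPM against 73.1 in the CCl4 library. Ces1g was higher by 1.55, and Pnpla3 and Nrip1 by 2.07 and 1.91 on low counts (43 against 7, and 75 against 15).

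Cyp26b1, the other liver-expressed Cyp26 enzyme, was lower in CCl4 at -1.71 (-2.09 to -1.39), with 94 counts against 256, where Cyp26a1 stood at 506 against 273. The other CCl4 reads held more Cyp26b1, with 8.44 CPM against 4.78 in the CCl4 library. The log2 ratio of the library over them was -0.81 (-1.17 to -0.49), so the size of the difference from corn oil depends on which CCl4 reads are used. Rarres1 (-1.03) and the pseudogene Rdh18-ps (-1.0017), which shares reads with Rdh7, were also lower in the CCl4 library than in corn oil. With JT003 in the CCl4 model none of the other genes was called (4.41% of all genes), and the ratios lay between -1.003 and 0.95. The retinoic acid and retinoid X receptors, 6 genes, held no call in any comparison. The median log2 ratio of the other genes was 0.08, 0.01, 0.00 and -0.08 in the 4 comparisons. In all, 14 of the 55 were called in at least 1 of them and 41 in none, where 12.4% of all genes were called in at least 1. This list too was chosen with earlier results of these data known, so the counts beside the shares are a description.

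**Figure D5:**
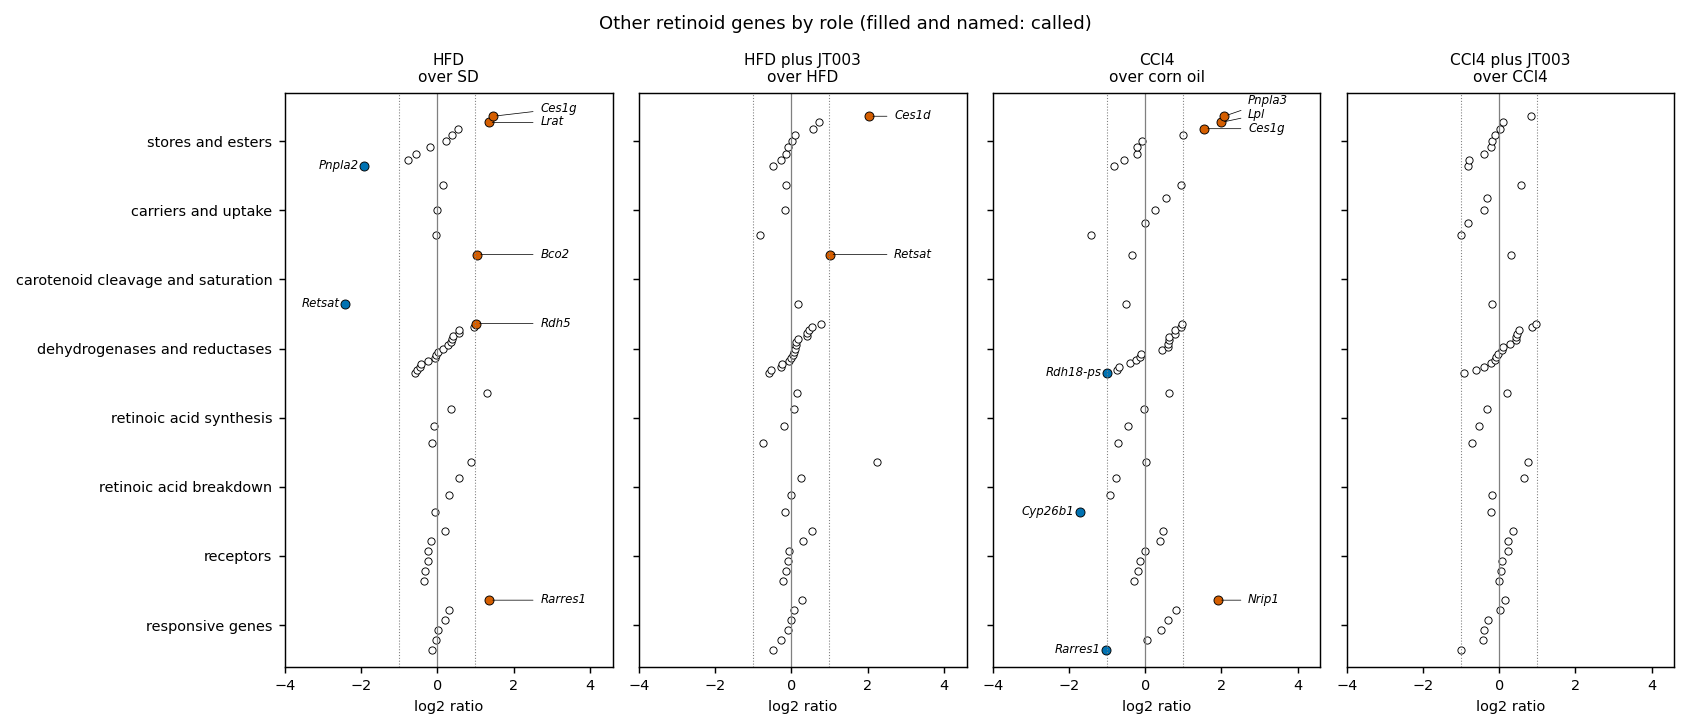
Log2 ratios of the other retinoid genes by role in the 4 model and JT003 comparisons, 1 point per gene shown, with dotted lines at 2-fold. Filled and named points are called, and the panel of CCl4 plus JT003 over CCl4 holds none.

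Between corn oil and SD, 7 of the other genes were called, 6 higher and 1 lower, where 5.42% of all genes were called. Among them were Cyp2s1 (49 counts against 3) and Cyp2c39 (65 against 16), cytochromes that act on retinoic acid, which like Cyp26a1 were higher in corn oil. Aldh1a2, an enzyme of retinoic acid synthesis, had 13 counts against 0. Rdh5 (1.12) and Rarres1 (1.28) were also called higher in corn oil, beside 1.02 and 1.36 for HFD over SD, and SD was the lowest of these 3 libraries for both. Nrip1, listed like Rarres1 as a retinoic acid responder, was lower, with 15 counts against 136. Of the 6 listed responders 1 was called higher and 1 lower in corn oil, and their median log2 ratio was -0.53. Cyp2s1, Cyp2c39 and Aldh1a2 were named after their values were seen.

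For the 6 members that spanned at least 2-fold, the genes with the most similar pattern over the 6 libraries were taken from 9376 genes with a mean of at least 100 counts, by Pearson r of log2 CPM. With 6 points that share their libraries, a high r is easily reached and is given as a description. For Aldh1a1 they were Rgn (r = 0.99), Car3 (0.99) and Gmps (0.99). Car3, a carbonic anhydrase of muscle, fat and liver, had 2830 counts in SD, 39704 in HFD, 48771 in HFD plus JT003, 9536 in corn oil, 15312 in CCl4 and 8859 with CCl4 plus JT003. Cyp26a1 was closest to Tnfrsf10b, Rarres2 and D2Wsu81e (r = 0.998, 0.995 and 0.995). Rarres2, the chemerin gene and itself a retinoic acid responder, had 5289 counts in SD and 11334 in CCl4 plus JT003, a far smaller range than that of Cyp26a1. Rdh11 was closest to the tubulin gene Tuba1c (0.99), to Sfr1 (0.98) and to the kinetochore gene Pmf1 (0.98), all highest in CCl4. Rdh16 was closest to Zfp703, Slc27a2 and Osbpl1a (each 0.98), Bco1 to Ube2d1 (0.99), Cerk (0.97) and Itih5 (0.97), and Dhrs9 to Pigt (0.99), Tsta3 (0.97) and Dhx37 (0.97).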

How the data were processed

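Livers of 6 conditions were sequenced as 1 library each. For each library the authors deposited expected counts, estimated reads per gene without normalization, and FPKM values, which they corrected for transcript length and library depth. The submitters' processing notes name HISAT, Bowtie2, RSEM and mm9, without versions. About 70% of the counts were whole (69.9% to 70.9% per library). The authors also deposited 4 comparison tables with FPKM or count columns, log2 ratios, p-values and q-values. The comparison values and 7 expression columns were not used, and 3 tables were not used at all. The CCl4 column of the fourth holds counts that appear pooled, with 24 genes below the CCl4 library by at most 0.99 counts.

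Expected counts were rounded, and libraries were scaled by TMM factors (edgeR 4.0.16, R 4.3.3) from the 3 libraries within each model, or from all 6 for the levels and the controls. Genes with at least 1 read in the pair entered an exact binomial test, two-sided and conditional on their sum (scipy 1.17.1), and p-values were adjusted after Benjamini and Hochberg. Calls required an adjusted p under 0.001 and a ratio of at least 2-fold, with a prior count of 2. Reads were tested between libraries only, so no p is given. The test was checked on simulated data. The members and lists were chosen with earlier results of these data known. Named genes are the members, other retinoid genes called in at least 1 of the 4 model or JT003 comparisons (1 of them is not reported here), and the 3 genes most similar to each member. Ttr, Aldh1a7, Rdh9, Cyp2s1, Cyp2c39 and Aldh1a2 were named outside this rule, after their values were seen, as were single genes of the marker lists. Promoters come from RefSeq (GRCm38.p6), and transcripts from a GRCm38 annotation; gene coordinates are not given, since mm9 is another build. Of the 18444 gene identifiers, 18403 were in the RefSeq table, and Rdh16f2 was matched by identifier. Alternatives were total reads, DESeq2 1.42.0 size factors, TMM factors over other libraries, at least 10 counts, a prior count of 0.5, log2 of FPKM plus 1, edgeR's exact test with an assumed coefficient of variation of 0.4, a 1.5-fold threshold and the pooled CCl4 counts. Tables and plots were made with Python 3.11.15, numpy 2.4.6, pandas 2.3.3 and matplotlib 3.10.9.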

Additional observations from a re-analysis of the deposited data

Results flagged for a closer look

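For 2 members the ratio with JT003 had opposite signs in the models, beyond counting error in each. Aldh1a1 stood at 0.13 for HFD plus JT003 over HFD and at -0.18 for CCl4 plus JT003 over CCl4, and the latter changed sign with the other CCl4 reads. Cyp26a1 stood at -1.09 in the diet model and at 0.91 in the CCl4 model, from 44 to 20 counts and from 506 to 957. With 1 library per condition the difference between the models was not tested.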

How the results depend on the processing

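Of 352 member results under an alternative, 321 kept their direction and side of the threshold, 12 lost the call, 17 gained one and 2 changed sign. The minimum of 10 counts, the assumed coefficient of variation and the 1.5-fold threshold left every ratio as it was. Under these only the call could change, so part of the 321 kept their direction by construction. The sign changes were those of Aldh1a1 with the other CCl4 reads, at -0.0032 for CCl4 over corn oil and 0.031 for CCl4 plus JT003 over CCl4. With an assumed coefficient of variation of 0.4, 0 members and 0 other retinoid genes were called between SD and HFD, corn oil and CCl4, or CCl4 and CCl4 plus JT003, 0 other genes with JT003 in the diet model, and 1 member (Cyp26a1) with 0 other genes between the controls, while 11, 0, 59, 0 and 6 of all genes were called in the 5 comparisons in the order HFD over SD, HFD plus JT003 over HFD, CCl4 over corn oil, CCl4 plus JT003 over CCl4 and corn oil over SD. At 1.5-fold, 5 members were called between SD and HFD, 6 between corn oil and CCl4 and 5 between the controls, 5, 19, 8 and 16 other genes in the last 4 of these comparisons, and 1877, 748, 2398, 1849 and 2560 of all genes in the same order of 5 against 914, 278, 1237, 767 and 923. On log2 of FPKM plus 1, the controls differed in 1 member and 4 other genes, and all genes numbered 496 for CCl4 plus JT003 over CCl4 and 509 for the controls. For CCl4 plus JT003 over CCl4, other genes called were 1 with total reads, 2 with the pooled counts and 3 with the other CCl4 reads. Total reads brought the median of all genes to 0.12 (HFD over SD) and 0.23 (CCl4 over corn oil), and the share of calls that were higher from 54.2% to 65.5% and from 66.4% to 81.9%, and between the controls from 40.2% to 29.9%. That share was 77.9% on log2 of FPKM plus 1 for CCl4 over corn oil, and 29.8% with the pooled counts and 28.3% with the other CCl4 reads, against 43.3%, for CCl4 plus JT003 over CCl4. The causes of these shifts were not tested. No paired analysis was possible because each condition has 1 library, and no library could be left out for the same reason. Counts under about 10, as of Cyp26a1 in SD and Dhrs9 in corn oil, limit their ratios.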
